A study of Mus musculus with 13 samples.

Results

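Cytochromes P450 of families 1 to 4 are the haem enzymes with which the liver oxidises drugs, toxins, steroids and fatty acids. The members described here are all genes of the deposited matrices whose symbol is Cyp, a family number from 1 to 4, a subfamily letter and a gene number, which gave 75 of 55353 genes. Family 1 had 3 members, family 2 had 48, family 3 had 7 and family 4 had 17. Raw unique molecular identifiers (UMIs, 1 per captured transcript end) were read by cell type and by day of diet. They were also read in barcodes that held at most 100 UMIs. These are taken as a measure of RNA free in the cell suspension, which was not tested.

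The libraries were 3′ droplet single-cell libraries of livers from male C57BL/6J mice of 6 to 12 weeks. DDC mice ate chow with 0.1% of 3,5-diethoxycarbonyl-1,4-dihydrocollidine, a porphyrinogenic compound that injures bile ducts, for 3, 5, 9, 19 or 25 days, and D0 mice ate none. Each day had 1 library of isolation protocol A and 1 of protocol B, so D0 had 2 libraries, onset (D3 and D5) had 4 and progression (D9, D19 and D25) had 6, and 1 further library (STOP, protocol B) came from mice that had 18 days of DDC and 7 days of recovery. The D19 library of protocol B carries day 18 in its group label and is counted as D19, as the study does. The labels do not say which mice went into which library, so p-values measure the spread between libraries. Sorting decided which cells were seen: protocol A listed live singlets beside Epcam+ epithelium, Lyve-1+ and CD31+ Lyve-1- endothelium, CD45+ leukocytes, Pdpn+ cells and cells with retinoid autofluorescence, protocol B took a stellate cell preparation, Epcam+ epithelium, Cd3e+ Lyve-1- lymphocytes and CD45+ Itgax+ CD64- cells, and neither protocol named a gate for hepatocytes.

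In the liver these enzymes work in the endoplasmic reticulum of hepatocytes, where they take electrons from P450 oxidoreductase (Por) and, for some substrates, from cytochrome b5 (Cyb5a). Family 1 is induced through the aryl hydrocarbon receptor, families 2 and 3 largely through the nuclear receptors CAR and PXR, and family 4, whose members mainly hydroxylate fatty acids and eicosanoids, partly through PPARα. Several members are known mainly outside the hepatocyte.

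Barcodes with at least 1500 UMIs were taken as cells. There were 95563 of them, 1541 to 14764 per library, and the libraries held 29307190 to 108602421 UMIs in all. Clusters were made without any Cyp gene and named from marker lists, which put 77.7% of cells in 12 types, and pairs of libraries shared at most 0.519% of their cell barcodes. The hepatocyte-like cluster had 795 cells, all 10 hepatocyte markers were found in at least 10% of them, and a median of 4.90% of their UMIs came from these markers against 0.0266% in other cells. Albumin (Alb) itself was a median of 0.250% of their UMIs, so "Alb-high" holds for 103 of them at a limit of 1%. Of the 204 cells past that limit 83 lay in clusters of biliary epithelium, 17 in unnamed clusters and 1 in LSEC clusters. Mitochondrial transcripts were a median of 0.0476% of UMIs in hepatocyte-like cells and 3.08% in other named cells. The cells came unevenly from the libraries: STOP had 445, D25 B 216, D9 B 37, D0 A 26 and D19 B 24, and none of the other 8 libraries had more than 15. A further cluster of 2078 cells had the hepatocyte markers Alb, Apoa1, Ahsg and Fgb, but a median of 68.3% mitochondrial UMIs. It was left unnamed by a limit of 30% and is not used here. Among its cells were 89 of D3 A, 77 of D5 B, 646 of D19 A and 631 of D25 A.

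The 75 members gave 255793 UMIs in cells, or 352 CPM, where CPM are the UMIs of a gene per 1000000 UMIs of the cells summed. In these 3′ data 1 transcript gives 1 UMI whatever its length. Of the members, 48 had at least 100 UMIs, 20 had 1 to 99 and 7 had 0 (Cyp2a22, Cyp2b23, Cyp2j7, Cyp2j11, Cyp2j12, Cyp3a16 and Cyp4a29), which at a limit of 3 counts over all cells allows up to 0.00413 CPM each. At least 5 CPM in some type was reached by 44 members. For 27 of these the highest type was the hepatocyte-like cell, and 20 of the 27 were there at least 5 times the level of the next type. The other 17 were highest in biliary epithelial cells (BEC, 6 members), sinusoidal endothelium (LSEC, 3), stellate cells and fibroblasts (3), large-vessel endothelium (CEC, 2), macrophages (1), monocytes (1) and neutrophils (1). These ranks use UMIs pooled over libraries, and STOP and D25 B supplied most hepatocyte-like cells. Cyp4a10 is among the 27 through 38 UMIs of STOP, and its median by library was 0.602 CPM in hepatocyte-like cells and 4.96 in LSEC. Cyp4f17 was counted to stellate cells and fibroblasts at 17.25 CPM against 17.02 in BEC, but its medians by library were 14.0 and 17.2 CPM.

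**Figure D1:**
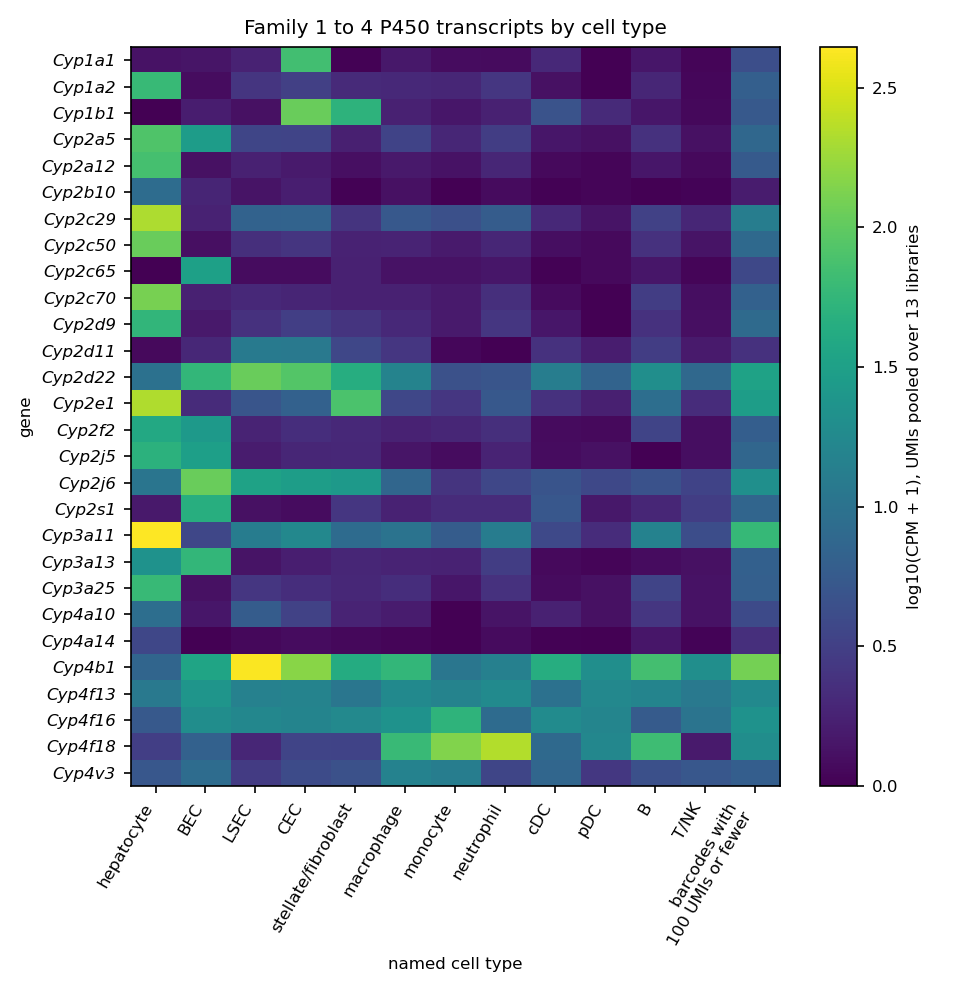
Level of 28 members (rows) in 12 named cell types and in barcodes with 100 UMIs or fewer (columns), as log10 of CPM plus 1 with UMIs pooled over 13 libraries. Cyp3a11 (442 CPM), Cyp2e1, Cyp2c29, Cyp2c70 and Cyp2c50 are the brightest of the hepatocyte column, whereas Cyp4b1 peaks in LSEC (422 CPM), Cyp1a1 and Cyp1b1 in CEC (69.6 and 108 CPM), Cyp2s1 and Cyp3a13 in BEC and Cyp4f18 in neutrophils (219 CPM).

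Barcodes with few UMIs carried members too, and differently in each library. In barcodes with 100 UMIs or fewer the members summed to between 145 CPM (D0 B) and 902 CPM (STOP), with a median of 317 CPM over 13 libraries, and D0 A was next to STOP at 827 CPM. Alb in the same barcodes ran from 69.3 to 1559 CPM, and 29 to 53 members were detected there. Cyp4b1 led in all 6 libraries of protocol A and in D19 B, at up to 392 CPM in D0 A, and Cyp3a11 led in D25 B at 25.1 CPM and in STOP at 266 CPM. For the main members of a type, though not for every value, the number of libraries in which the level was above that of these barcodes is therefore given below. The make-up of these barcodes differed between libraries. Those of 10 to 50 UMIs held 69.77% of their UMIs in D0 B. In the libraries of progression they held between 1.155% (D19 A) and 2.187% (D9 B).

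The 3 members of family 1 stood in 3 different places. Their upstream sequences are shown first, because family 1 is the textbook target of the aryl hydrocarbon receptor, whose binding element has the core GCGTG. Each is the 250 bases before the start of transcription, from RefSeq on GRCm38.p6, printed 5′ to 3′ in the direction of the gene, with GCGTG or its reverse complement CACGC in capitals. The windows are chr9:57697363-57697612 (plus strand) for Cyp1a1, chr9:57683656-57683905 (minus strand) for Cyp1a2 and chr17:79715062-79715311 (minus strand) for Cyp1b1.
Cyp1a1: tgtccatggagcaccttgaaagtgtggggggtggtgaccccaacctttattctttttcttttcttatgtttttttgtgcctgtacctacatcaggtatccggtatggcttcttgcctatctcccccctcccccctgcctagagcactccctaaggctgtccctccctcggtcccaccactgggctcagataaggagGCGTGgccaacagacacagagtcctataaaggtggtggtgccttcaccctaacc
Cyp1a2: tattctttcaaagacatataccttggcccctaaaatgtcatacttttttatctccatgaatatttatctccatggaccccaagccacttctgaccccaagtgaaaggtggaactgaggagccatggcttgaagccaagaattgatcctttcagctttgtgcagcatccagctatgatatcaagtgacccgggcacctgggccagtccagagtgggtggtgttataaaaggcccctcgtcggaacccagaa
Cyp1b1: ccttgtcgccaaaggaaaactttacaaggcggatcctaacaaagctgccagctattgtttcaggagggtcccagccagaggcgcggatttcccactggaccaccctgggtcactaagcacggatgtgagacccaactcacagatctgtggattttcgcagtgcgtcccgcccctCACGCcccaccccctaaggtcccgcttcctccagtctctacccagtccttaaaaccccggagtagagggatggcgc
The core lay 54 bases before the start in Cyp1a1, on the strand of the gene, and 76 bases before it in Cyp1b1, on the other strand, and it was not in the Cyp1a2 window. Of 69 windows of 300 bases found for 62 members, 14 (20.3%) held the core on either strand, against 32.4% of all such windows. A match is a description of letters, and elements farther upstream are outside these windows.

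Cyp1a1, the most inducible member of the family, was a transcript of large-vessel endothelium, and Cyp1b1, an extrahepatic enzyme of steroid and retinoid oxidation, was shared between that endothelium and mesenchyme. In CEC-like cells Cyp1a1 stood at 98.6 CPM in D0 A, 103 in D3 A, 109.8 in D5 A, 33.3 in D9 A, 47.2 in D19 A and 14.3 in D25 A. In protocol B it was 46.8 CPM in D5 B, 5.04 in D9 B, 23.2 in D19 B, 9.25 in D25 B and 6.06 in STOP (the exact 95% Poisson interval of the last, which like all such intervals here covers counting error only, was 2.22 to 13.2 CPM). The 3 protocol A libraries of D0 to D5 lay above the 3 of D9 to D25, and within protocol B the single library of D5 lay above the later 4, with no comparison over days planned or tested in CEC. The level was above that of the low barcodes in 11 of 11 libraries, and CEC held 83.1% of all Cyp1a1 UMIs of named cells.

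The 2 CEC-like clusters split the pair. Cluster 28, led by Sema3g, Npr3 and Ly6c1, and cluster 16, led by Rspo3, Bmp4 and Vwf, both had at least 20 cells in 9 libraries. Cyp1a1 was higher in cluster 28 in 9 of 9, with a median of 106 CPM against 6.21 in cluster 16. Within cluster 28 it read 278 CPM in D0 A, 187 in D3 A, 290.3 in D5 A, 113 in D9 A, 106 in D19 A and 25.6 in D25 A, again with the protocol A libraries of D0 to D5 above those of D9 to D25. In protocol B it read 94.4 CPM in D5 B (13 UMIs), below D9 A and D19 A, and 43.6 in D19 B, 12.6 in D25 B and 12.0 in STOP. Cyp1b1 went the other way in 9 of 9 libraries, with a median of 4.28 CPM in cluster 28 and 177 CPM (range 99.3 to 241) in cluster 16. Cyp1a1 and Cyp1b1 were not used to build the clusters, and no test was run on the pair. The aryl hydrocarbon receptor itself (Ahr) was at 193 CPM in CEC, 140 in LSEC, 80.8 in BEC and 33.3 in hepatocyte-like cells.

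**Figure D2:**
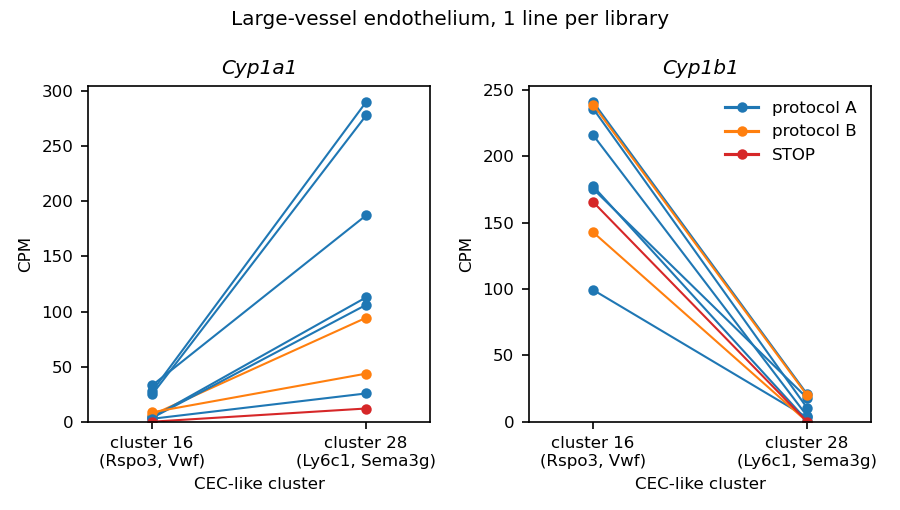
Cyp1a1 (left) and Cyp1b1 (right) in CPM in the 2 clusters of large-vessel endothelium, with 1 line per library that had at least 20 cells of both, coloured by protocol. Each of the 9 lines goes up for Cyp1a1 from cluster 16 to cluster 28 and down for Cyp1b1.

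Cyp1b1 was also found in stellate cells and fibroblasts, at 50.4 CPM pooled. There it was higher in the fibroblast-marker cluster 41 (Clec3b, Scara5, Mfap5) than in the stellate-marker cluster 30 (Lrat, Reln, Colec11) in 5 of 6 libraries, with medians of 101.3 and 17.5 CPM. Cyp1a2, the caffeine-oxidising enzyme of the centrilobular hepatocyte, was the hepatocyte member of the family, at 59.8 CPM in hepatocyte-like cells against 2.17 CPM in the next type. By library it was 93.0 CPM in D0 A, 44.9 in D9 B, 41.7 in D19 B, 75.9 in D25 B and 35.7 in STOP. It was above the low barcodes in 5 of 5 libraries. The smaller D9 A, with 8 cells, had 586 CPM (interval 437 to 768).

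Hepatocyte-like cells were compared with the 3 other types of main interest (LSEC, BEC and macrophages) in one fit of the atlas libraries, with edgeR's quasi-likelihood test, Benjamini-Hochberg adjustment over all genes and the library as a block. Here and below each type was set against the mean log level of the other 3, so a member called higher can lie below another type. The types are defined by other transcripts of the same cells, so these p-values say how steady a difference was over libraries. Of the 75 members 53 passed the filter on low counts, which keeps a gene that is high in only 1 type, and 33 of them were higher and 5 lower in hepatocyte-like cells, beside 21.3% and 27.4% of all 15799 genes. The median log2 fold change of these members was 4.91, and that of all genes was -0.53. The first is a description of the members that passed and of no others: without the filter 67 members were tested and their median was 2.99, and with hepatocytes taken as cells with Alb at 1% of UMIs or more it was 3.67. With DESeq2, whose model and scaling both differ, the medians of members and of all genes were 4.94 and -0.03, and with RLE size factors in edgeR they were 5.00 and -0.49.

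The 10 members with the highest mean level in hepatocyte-like cells were Cyp3a11, Cyp2e1, Cyp2c29, Cyp2c50, Cyp2c70, Cyp2a5, Cyp2f2, Cyp2d9, Cyp3a25 and Cyp2a12, and each was above the low barcodes in all 5 libraries with at least 20 such cells. Cyp3a11, the main mouse counterpart of human CYP3A4, was at 806 CPM in D0 A, 275 in D9 B, 250.4 in D19 B, 410.2 in D25 B and 406 in STOP. Its log2 fold change against the other 3 types was 6.26 (SE 0.284, adjusted p 2.76e-17) and 5.62 without D25 B. Cyp2e1, which oxidises ethanol and acetone, was at 1137 CPM in D0 A, 81.4 in D9 B, 303 in D19 B, 104 in D25 B and 222 in STOP. Against the other types it differed by 7.12 on the log2 scale (SE 0.316, adjusted p 1.54e-17). Among these 5 libraries both genes were highest in D0 A, with intervals of 637 to 1006 CPM and 935 to 1371 CPM there that none of the other 4 intervals reached. That order does not extend to the libraries with fewer cells. The other D0 library, D0 B with 9 cells, had Cyp3a11 at 789.9 CPM (interval 576 to 1057) but Cyp2e1 at 439 CPM (284 to 648), below the interval of D0 A. D9 A, with 8 cells, had Cyp3a11 at 2714 CPM (interval 2383 to 3080) and Cyp2e1 at 1081 CPM (876 to 1320), each found in 25.0% of its cells. For Cyp3a11 the interval of D19 A, with 15 cells, also overlapped that of D0 A (430 to 673 CPM).

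Not all members followed that order of the 5 libraries. Cyp2c29, a CAR-responsive epoxygenase of arachidonic acid, was at 196 CPM in D0 A, 135 in D9 B, 224 in D19 B, 393 in D25 B and 88.8 in STOP, so D25 B was highest of the 5. Of the libraries with fewer cells, D9 A was higher, at 1070 CPM (interval 866 to 1308), as was the 1 cell of D5 A, at 1287 CPM (517 to 2651). Cyp2a5, the coumarin hydroxylase, was at 62.0 CPM in D0 A, 64.5 in D9 B, 204 in D19 B, 84.3 in D25 B and 36.7 in STOP. Here D19 B was highest of the 5, and the interval of D0 A, with 6 UMIs, overlapped those of D9 B, D25 B and STOP. Among the smaller libraries D9 A had 1126 CPM of Cyp2a5 (100 UMIs, interval 916 to 1370) and D5 B 218 CPM (109 to 390). Cyp2f2, which bioactivates naphthalene, was at 331 CPM in D0 A and at 11.2 to 36.5 CPM in the other 4 libraries. Cyp2d9, a testosterone hydroxylase known as male-biased, was likewise at 299.8 CPM in D0 A and at 5.61 to 54.5 CPM in the others. This contrast did not hold in every smaller library. Cyp2d9 was at 236.5 CPM in D9 A (interval 146 to 362, which overlapped that of D0 A). The 1 cell of D3 B had Cyp2f2 at 1156 CPM (7 UMIs) and Cyp2d9 at 1321 CPM (8 UMIs). Cyp2c70, which makes the muricholic acids of mouse bile, ranged over the 5 libraries from 72.9 CPM in D9 B to 161 in D25 B, with 298 CPM in D0 B and 248 in D9 A.

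**Figure D3:**
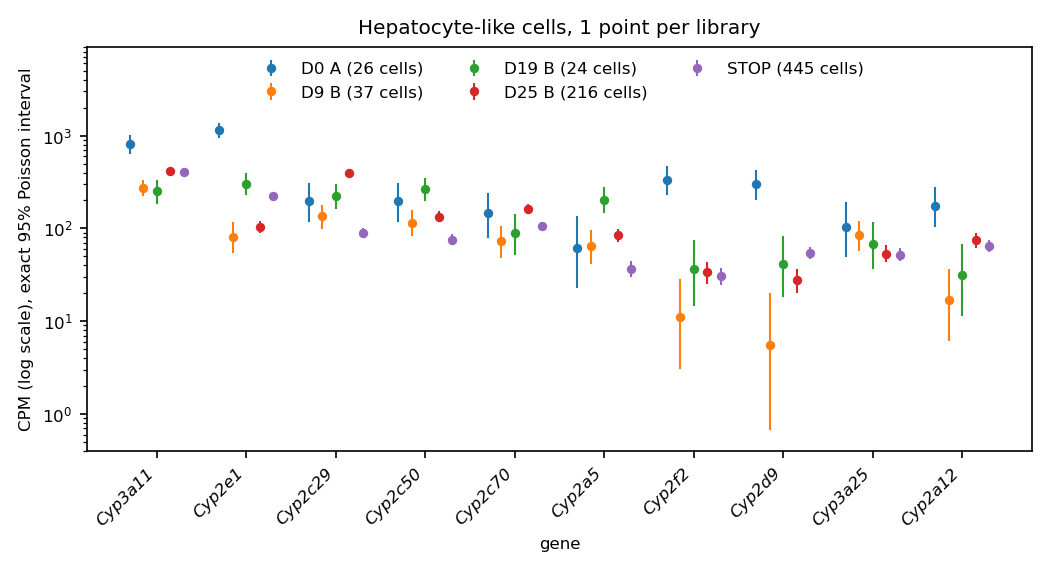
The 10 members that are highest in hepatocyte-like cells, as CPM on a log scale with exact 95% Poisson intervals, 1 point for each library with at least 20 such cells. D0 A lies above the 4 other libraries for Cyp3a11, Cyp2e1, Cyp2f2, Cyp2d9, Cyp3a25 and Cyp2a12, and D25 B lies highest for Cyp2c29.

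Cyp2b10, the standard transcript of CAR activation, had 0 UMIs in the 26 cells of D0 A, which leaves an interval of up to 38.1 CPM. It had 4 UMIs in D9 B (11.2 CPM), 1 in D19 B (5.22 CPM), 18 in D25 B (10.8 CPM, interval 6.43 to 17.1) and 1 in the 445 cells of STOP (0.337 CPM, interval 0.00852 to 1.88). The intervals of D25 B and STOP did not overlap. The highest value was that of a smaller library, with 11 UMIs in the 8 cells of D9 A (124 CPM, interval 61.9 to 222). Cyp4a14, a fatty acid hydroxylase and target of PPARα, had 3 UMIs in D0 A (31.0 CPM, interval 6.4 to 90.6), 0 in D25 B (interval up to 2.22 CPM) and 11 in STOP (3.70 CPM).

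Differences over diet could not be tested in hepatocyte-like cells: no library of onset had 20 of them, and D0 was represented by D0 A alone, the only protocol A library among the 5. Day, protocol and library therefore cannot be told apart. The general hepatocyte transcripts moved as well: Alb was at 11960 CPM in D0 A, 1161 in D9 B, 2791 in D19 B, 5471 in D25 B and 4782 in STOP, and its part in the orders given above was not tested. Fewer cells of a zone and less RNA per cell also cannot be told apart in these sums.

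Zone was read from genes that are no members, with pericentral cells those with more UMIs of Glul, Oat, Slc1a2, Rhbg, Lgr5 and Axin2 than of the periportal genes Hal, Sds, Pck1, Gls2, Hsd17b13 and Etnppl. The STOP library alone had enough of both, 117 pericentral and 223 periportal cells, so values of 1 library are given without a test. Its low barcodes held the most members of all libraries, 902 CPM, led by Cyp3a11 and Cyp2e1. Their part in the zone values was not tested. Cyp2e1 was at 343 CPM in pericentral and 140.0 in periportal cells, Cyp2c29 at 135 and 57.1, Cyp2c50 at 113 and 53.4, and Cyp1a2 at 54.4 and 31.9, of which the last pair alone had intervals that overlapped. Cyp2f2 had the opposite order, with 4.63 CPM (4 UMIs) in pericentral and 46.7 CPM in periportal cells. Cyp3a11 also read lower in the pericentral cells, at 285 against 457 CPM, as did Cyp2c70 (71.8 against 126.5), Cyp2a12 (42.8 against 80.5) and Cyp2d9 (34.7 against 68.8). Alb was lower there as well, at 3290 against 5813 CPM, and its part in these members was not tested. Cyp2a5 (39.4 and 33.8 CPM) and Cyp3a25 (52.1 and 58.3 CPM) had intervals that overlapped widely. In D25 B 14 of the 216 cells were pericentral by this rule and 158 were periportal, and several orders were not those of STOP. Cyp2c29 was lower in the pericentral cells there, at 229 CPM (interval 154 to 329) against 386 CPM (354 to 420), as was Cyp2c50, at 55.3 CPM (22.3 to 114) against 134 CPM (115 to 155). Cyp2e1 (71.2 and 98.3 CPM) and Cyp1a2 (31.6 and 85.2 CPM) also read lower, with intervals that overlapped. Cyp2f2 had 0 UMIs (interval up to 29.2 CPM) against 38.6 CPM (28.9 to 50.5), so these intervals overlapped too, and Alb was at 1771 against 5917 CPM. Other members read lower in the pericentral cells as in STOP: Cyp3a11 (285 against 436 CPM), Cyp2c70 (87.0 against 177), Cyp2a12 (0 against 88.1) and Cyp2d9 (7.91 against 29.8). The intervals of Cyp2c70 overlapped slightly (43.4 to 155.6 and 155.3 to 200.6 CPM). Those of Cyp2d9, with 1 UMI in the pericentral cells, overlapped as well (0.2 to 44.0 and 21.4 to 40.5 CPM).

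The other members called higher in hepatocyte-like cells were 8 of subfamily 2c, 4 of subfamily 2d, 2 of 3a (Cyp3a13 and Cyp3a59), 2 of 4f (Cyp4f14 and Cyp4f15), and Cyp2g1, Cyp2j5, Cyp2r1 and Cyp2u1, with log2 fold changes from 2.40 (Cyp2u1) to 7.90 (Cyp2c38). No size is given for Cyp2g1 and Cyp2c39, which had 0 UMIs in at least 1 of the other types of the fit. Cyp2r1 was at 0.92 without D25 B, where it did not pass (adjusted p 0.552). Copies within 2c and 2d are close enough for reads to be split between them. The 5 members lower in hepatocyte-like cells were Cyp2j9, Cyp4b1, Cyp2j6, Cyp2d22 (-1.54) and Cyp4f16 (-1.31, or -2.04 without D25 B). Over the 4 libraries of the fit Cyp2j9 had 0 UMIs in hepatocyte-like cells, Cyp4b1 had 1, in D0 A, and the 24 of Cyp2j6 were all in D25 B, so no size is given for them. When hepatocytes were instead taken as every cell with Alb at 1% of UMIs or more, Cyp2d22 and Cyp2j6 turned to 0.93 and 1.99, and 83 of those 204 cells came from BEC clusters.

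The partners of the P450 enzymes were read from lists, to be set beside the 21.3% of all genes that were higher and the 27.4% that were lower. Of 6 redox partners 4 were higher in hepatocyte-like cells, Cyb5a (log2 fold change 4.53, SE 0.188), Cyb5b, Cyb5r3 and Pgrmc1, and 2 were lower, Por (-1.84, SE 0.298) and Pgrmc2. Por, the electron donor of all members, was at 21.2 CPM in hepatocyte-like cells and 57.6 to 116 CPM in LSEC, BEC and macrophages. Of 14 transcriptional regulators 9 were higher, among them CAR (Nr1i3, 7.17), PPARα (Ppara, 6.45) and PXR (Nr1i2, 5.46), and 3 were lower (Tiparp, Nfe2l2 and Arnt). Of 21 conjugating and other xenobiotic enzymes tested 20 were higher and 0 lower, with Gstm3 (9.91) and Fmo5 (7.23) at the top and Ephx1 (0.45, adjusted p 0.328) the one that did not pass. Of 11 P450 genes outside families 1 to 4 that were tested, 3 were higher, the bile acid enzymes Cyp7a1 (5.67), Cyp8b1 (4.45) and Cyp27a1 (1.87), and 3 were lower, close to the shares of all genes. None of the 7 members known as female-biased in mouse liver passed the filter, and Cyp2d9, the male-biased one, was higher (6.35).

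In sinusoidal endothelium few members were called higher. Of the 53 members tested 8 were higher in LSEC-like cells than in the mean of the 3 other types, and 31 lower. Of all genes 31.4% were higher and 37% lower. All genes split 4967 to 5853 here but 5706 to 5268 with RLE size factors, 6110 to 4164 without mixed cells and 6325 to 4645 without D0 A, and the members 9 to 29, 10 to 23 and 9 to 27. The member median was -1.58, and that of all genes was -0.17. It described only the members that passed the filter. The mean of the other 3 types includes hepatocyte-like cells, in which 33 of the 53 members were called higher. The lower calls and the median in LSEC are therefore no result apart from the hepatocyte calls. Cyp4b1, a fatty acid and xenobiotic hydroxylase known best from lung, stood highest, 5.27 above the other types on the log2 scale (SE 0.278, adjusted p 7.82e-16). It was 4.85 to 7.19 with each library left out, the highest without D0 A, which held the 1 UMI of Cyp4b1 in the hepatocyte-like cells of the fit. A size with a type at 0 UMIs, as there, depends on the prior count of the fit and is no bound. The 5.27 in turn leans on that 1 UMI, so its size is uncertain. Its mean was 441 ± 136 CPM (SD, n = 12 libraries), and it was above the low barcodes in 13 of 13 libraries. Cyp2d22, the closest mouse relative of human CYP2D6, followed at 110.0 ± 30.8 CPM (SD, n = 12) and was higher by 2.27 (SE 0.240, adjusted p 1.54e-09), also above the low barcodes in 13 of 13.

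The other 6 members higher in LSEC were low: Cyp2d11, Cyp2j9, Cyp2t4, Cyp4a32 (log2 fold change 2.17), Cyp4a10 (2.07) and Cyp4a31 (1.54). The first 3 had 0 UMIs in the hepatocyte-like cells of the fit, so no size is given for them. Cyp4a32 was at 3.99 without D9 B, where hepatocyte-like cells were left with 0 UMIs, and Cyp4a10 at 2.92 without D0 A. Cyp2d11 had a median of 9.34 CPM and Cyp4a10 one of 4.96 CPM, both above the low barcodes in 12 of 13 libraries. The Cyp4a and Cyp2d genes are near-identical neighbours whose reads the counting could split between copies, so which copy carries the signal is uncertain. Cyp2j6 was at 31.8 ± 4.25 CPM in LSEC (SD, n = 12), and its difference from the other types (0.49, SE 0.229, adjusted p 0.0598) did not pass. In CEC Cyp2d22 was at 80.9 ± 24.5 CPM (SD, n = 10) and above the low barcodes in 10 of 11 libraries. Cyp4b1 was at 128 ± 35.0 CPM there but above the low barcodes in 7 of 11, and its CPM summed over libraries was 1.01 times that of these barcodes. It was higher in cluster 28 than in cluster 16 in 7 of 9 libraries, with medians of 195 and 116 CPM. Its level was thus near that of the low barcodes, and the part of free RNA was not tested.

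Over the diet Cyp4b1 in LSEC was at 780.4 CPM in D0 A and 572 in D0 B. In onset it was 449.5 CPM in D3 A, 504 in D3 B, 416 in D5 A and 331 in D5 B. In progression it was 445 in D9 A, 337 in D9 B, 382 in D19 A, 465.9 in D19 B, 276 in D25 A and 333 in D25 B. Both D0 libraries lay above all 10 DDC libraries. The log2 fold change of DDC against D0 was -0.65 (SE 0.209), and it did not pass the adjustment over all genes (p 0.00728, adjusted p 0.271, edgeR). The low barcodes held more Cyp4b1 in D0 A (392 CPM) than in any other library, and 33.8 CPM in D0 B. The clusters that made up LSEC differed between libraries as well: cluster 50 held 218 of 287 cells in D0 B, cluster 17 held 1569 of 1991 in D19 A and cluster 9 held 1615 of 2584 in D25 A. Within cluster 1 Cyp4b1 was at 667 CPM in D0 A, 656 in D0 B and 272 to 530 in the 10 DDC libraries. Within cluster 2 it was at 961 CPM in D0 A, 610.2 in D0 B and 332 to 559 in the 8 DDC libraries with at least 20 cells of it. The D0 pair was thus the highest in both clusters. Cluster 9 was lowest, at 106 to 267 CPM, and had fewer than 20 cells in either D0 library. A further 2404 cells with markers of both LSEC and hepatocytes, 2294 of them from D0 A, were left out of LSEC. In STOP Cyp4b1 was at 612 CPM (interval 587 to 639), above the 465.9 CPM of D19 B (439 to 494) and beside the 572 CPM of D0 B (518 to 630), each a single library.

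No member passed the test of DDC against D0 in LSEC, of 15 that passed the filter, with edgeR or with DESeq2, beside 0.0371% of all genes called higher and 0.0463% lower, or 0.0834% together, by edgeR. At an unadjusted p under 0.05 there were 6, beside 10.8% of all genes: Cyp4b1, Cyp4a10, Cyp4a31, Cyp4a32, Cyp2e1 (log2 fold changes -0.65 to -2.05) and Cyp2c29 (2.75). Progression against onset gave 0 of 15 with either tool, beside 0.0371% of all genes higher and 0.0278% lower (0.0648% together), and 1 at an unadjusted p under 0.05 (Cyp2a5), beside 8.54%. Of the 6 redox partners, 7 regulators, 6 other P450 genes and 14 conjugating enzymes tested there, none passed in either comparison.

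Of the 4 types compared, biliary epithelium had the most members called higher after hepatocyte-like cells. Of 53 members tested 17 were higher in BEC-like cells than in the mean of the 3 other types, and 22 lower. Such calls can overlap between types, and Cyp2j5 and Cyp3a13 were also called higher in hepatocyte-like cells. Of all genes 38.9% were higher and 15.2% lower, so the lower share of members was the one above that of all genes. As in LSEC, the mean of the other types includes hepatocyte-like cells, so the lower calls are not independent of the hepatocyte ones. The member median was -0.36 beside 0.27. It described only the members that passed the filter, and was -0.0087 with no filter, -0.034 with 3000 UMIs per cell, -0.75 with DESeq2 and -1.23 without mixed cells. DESeq2 split the members 14 to 22, and all genes 5159 to 3916 where edgeR gave 6150 to 2407. Cyp2j6 was the most abundant, at 107 ± 25.98 CPM (SD, n = 9). It exceeded the other types by 2.99 on the log2 scale (SE 0.208, adjusted p 3.28e-13, edgeR). With each library left out this was 2.79 to 6.18, the highest without D25 B, which held all of its UMIs in the hepatocyte-like cells of the fit, so that 6.18 is no bound. Cyp2c65, a gastrointestinal member of its subfamily, was higher in BEC too (adjusted p 6.99e-14), at a median of 11.9 CPM, and no size is given because hepatocyte-like cells held 0 UMIs of it. Cyp2s1, an extrahepatic enzyme of epithelia, had 5.98 (SE 0.328) with 1 UMI in hepatocyte-like cells, in D25 B, and 7.74 without that library. Cyp3a13, the intestinal member of family 3, had 4.32 and Cyp2j5, known from kidney and liver, had 3.52. All of these were above the low barcodes in 10 of 10 libraries, whereas Cyp4b1, at 25.0 ± 10.1 CPM (SD, n = 9), was so in 3 of 10.

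The BEC members divided by cluster. Cluster 23 was led by Dmbt1, Muc3 and Spink4, cluster 20 by Cxcl5, Krt17 and Uts2b, and cluster 26 by Snorc, Lamc3 and Dcx. The other BEC-like clusters, 36 and 46, were not compared. Cyp2c65, Cyp2f2, Cyp2s1 and Cyp3a13 were each higher in cluster 23 than in cluster 20 in 8 of 8 libraries with both, and also than in cluster 26 in 8 of 8. Cyp2c65 had a median of 82.7 CPM in cluster 23 and 0.843 in cluster 20, Cyp2s1 had 119.9 and 12.5, and Cyp3a13 had 125 and 10.8. Cyp2f2 had 59.1 CPM and 0.0, with single libraries of cluster 23 from 4.79 to 197 CPM. Cyp2a5 was higher in cluster 23 in 7 of 8 libraries, with a median of 77.0 CPM and a range from 0 to 166.

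Other members did not follow that split. Cyp2j6 was higher in cluster 23 in only 5 of 8 libraries, with medians of 125 and 130.1 CPM. Of the clusters compared, Cyp2j5 and Cyp2d22 were highest in cluster 26, above cluster 20 in 7 of 7 libraries each. Their medians were 43.5 against 22.5 CPM and 72.2 against 45.5 CPM. The shares of these clusters differed between libraries, and D0 A had 684 of its 779 BEC-like cells in cluster 26. BEC-like cells also carried hepatocyte transcripts, with Alb at 284 to 4340 CPM over the 9 libraries, and 55.7% of them remained when cells with 0.2% or more of UMIs from markers of another type were left out. Without those cells Cyp2a5 turned from 1.08 to -0.43 against the 3 other types.

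**Figure D4:**
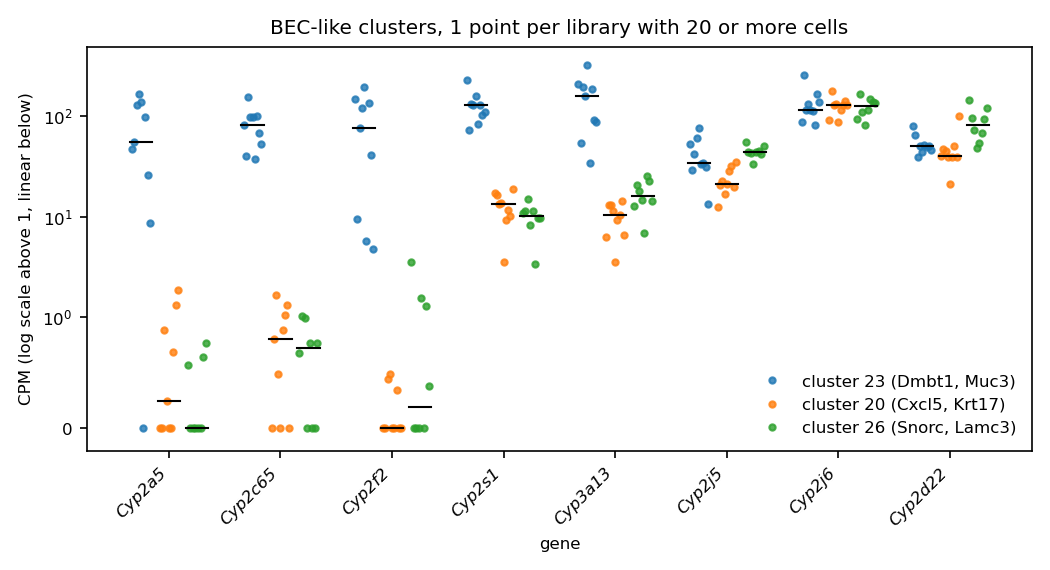
CPM of 8 members in 3 BEC-like clusters, with 1 point per library that had at least 20 cells of the cluster and a bar at the median; the axis is logarithmic above 1 CPM and linear below. Cyp2c65, Cyp2f2, Cyp2s1 and Cyp3a13 have higher medians in cluster 23 than in clusters 20 and 26, whereas Cyp2j6 lies near 100 CPM in all 3.

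Cyp2d22 was the member that passed the test of DDC against D0 in BEC. It was at 136.5 CPM in D0 A, the single D0 library with at least 20 BEC-like cells. In DDC libraries it was at 37.0 CPM in D3 B, 38.8 in D5 B, 52.9 in D9 A, 36.7 in D9 B, 38.7 in D19 A, 49.7 in D19 B, 42.9 in D25 A and 33.8 in D25 B. All 8 lay below D0 A, and STOP was between, at 71.9 CPM (interval 67.0 to 77.0). The log2 fold change was -1.37 (SE 0.284, adjusted p 0.0449, edgeR), with 1 of 38 members passing, beside 0.512% of all genes higher and 1.04% lower (1.55% together). At an unadjusted p under 0.05 there were 10 members, beside 21.8% of all genes.

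The call was lost when any 1 of the 8 DDC libraries was left out (adjusted p from 0.0529 to 0.111), while the log2 fold change stayed at -1.54 to -1.25. It was also lost without mixed cells, where the log2 fold change was -1.27. D0 A cannot be left out, and as the single D0 library it is assumed to vary like the others. In a simulated data set drawn from a pooled profile, this fit recovered few changed genes, and its few calls held a larger share of false ones than the threshold. So few calls leave that share uncertain. D0 A also had the highest Alb of the 9 libraries in BEC, 4340 CPM, and most of its cells were of cluster 26, where Cyp2d22 was above cluster 23 in 7 of 8 libraries. Within cluster 26 it was at 145.9 CPM in D0 A, 54.2 in D3 B, 68.6 in D5 B, 93.1 in D9 A, 96.0 in D19 B, 72.2 in D25 A, 47.8 in D25 B and 119.6 in STOP. Within cluster 23 it was at 80.4 CPM in D0 A and 38.8 to 65.7 in the others. D0 A was thus the highest library inside each of these clusters as well. Progression against onset gave 0 of 38 members with edgeR, beside 0% of all genes, with 3 at an unadjusted p under 0.05, beside 5.71%. DESeq2 called 1 member, lower, beside 8 genes higher and 6 lower of 15830. No gene of the redox, regulator, other P450 or conjugating lists passed in BEC.

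The members called higher in macrophages were all of family 4, though not all of family 4 was higher. Of 53 members tested 5 were higher in macrophage-like cells than in the mean of LSEC, BEC and hepatocyte-like cells, and 32 lower. Of all genes 33.1% were higher and 21.4% lower (54.6% together). The member median was -1.68 beside 0.18, for the members that passed the filter only. As in LSEC, hepatocyte-like cells are part of the mean of the other types. The lower calls and the median are therefore no result apart from the hepatocyte calls. With DESeq2 the members split 5 to 36 and all genes 4361 to 5304, where edgeR gave 5237 to 3382. The other types were exceeded most by Cyp4f18, which hydroxylates leukotriene B4, by 4.93 on the log2 scale (SE 0.299, adjusted p 1.90e-14). Cyp4v3, a medium-chain fatty acid hydroxylase, had 2.21 (SE 0.233) and Cyp4f16 had 1.13 (SE 0.121). Cyp4f18 and Cyp4v3 were above the low barcodes in 13 of 13 libraries and Cyp4f16 in 9 of 13, its summed CPM there being 1.04 times that of the barcodes. Cyp4f13 had 0.45 (SE 0.140, adjusted p 0.0077) and was above the low barcodes in 7 of 13, at 0.96 times their summed CPM, so both are read as near the level of these barcodes. Of the other 9 members of family 4 tested, Cyp4a10, Cyp4a31, Cyp4f14, Cyp4f15 and Cyp4f17 were lower (-1.40 to -3.43) and Cyp4a14, Cyp4a32, Cyp4f40 and Cyp4x1 did not pass. Cyp4b1 was also called (1.26, or 2.99 without D0 A), but at a median of 41.3 CPM it was above the low barcodes, at 52.0 CPM, in 3 of 13 libraries only.

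Cyp4f18 was not highest in macrophages. It was at 224 ± 80.6 CPM in neutrophils (SD, n = 11), 137 ± 63.5 in monocytes (n = 8), 64.7 ± 34.0 in macrophages (n = 12) and 47.0 ± 30.5 in B cells (n = 7), and the last pair lay within their spread. Neutrophils were above the low barcodes in 12 of 12 libraries and monocytes in 9 of 9. Within macrophages cluster 3, led by Gpnmb, Fcrls and Trem2, exceeded cluster 10, led by the Kupffer cell genes Clec4f, Marco and Timd4, in 13 of 13 libraries. The medians were 97.1 CPM (range 23.7 to 151) and 9.96 CPM (2.59 to 32.1). Cyp4f16 was higher in cluster 3 in 10 of 13 libraries, with medians of 23.9 and 15.9 CPM, and Cyp4v3 in 5 of 13. Monocytes had the highest Cyp4f16, at 56.9 ± 10.6 CPM (SD, n = 8).

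By diet group Cyp4f18 in macrophages was at 18.4 CPM in D0 A and 132 in D0 B, at 51.6 to 86.8 CPM in the 4 onset libraries and at 21.9 to 92.4 CPM in the 6 of progression. The D0 pair spanned the whole range, and cluster 3 held 49 of 575 macrophage-like cells in D0 A. Within cluster 3 it was at 47.9 CPM in D0 A, 110.1 in D0 B and 23.7 to 151 in DDC libraries. Cyp4f18 did not pass either comparison.

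Cyp2e1 was the member that passed DDC against D0 in macrophages, 1 of 19 tested, beside 2.54% of all genes higher and 3.23% lower (5.77% together), with 6 at an unadjusted p under 0.05, beside 21.2%. It was at 22.7 CPM in D0 A (79 UMIs in 575 cells) and 1.08 in D0 B (1 UMI), at 0.306 to 4.44 CPM in onset and at 0.325 to 3.94 in progression. D0 B lay inside the range of DDC libraries, and D0 A alone was apart. The log2 fold change was -2.47 (SE 0.541, adjusted p 0.0187, edgeR), and without D0 A it was -0.94 (adjusted p 0.814). The call also ended without mixed cells (-2.37, adjusted p 0.0603) and without the protocol term (-2.59, adjusted p 0.122). In the low barcodes of D0 A Cyp2e1 was at 51.0 CPM, and over libraries macrophages were above the low barcodes in 1 of 13 (medians 1.42 and 5.56 CPM), and the part of free RNA in these UMIs was not tested. Progression against onset gave 0 of 19 members, beside 0.119% of all genes higher and 0.0637% lower (0.183% together), with 4 at an unadjusted p under 0.05, beside 13.3%, and 1 by DESeq2.

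On the lists of partner genes 5 passed in macrophages. In DDC against D0 Por was higher (log2 fold change 0.73, SE 0.175, adjusted p 0.0278), as was the glutathione transferase Gstm1 (1.39, SE 0.236, adjusted p 0.0051). Tiparp, a target and brake of the aryl hydrocarbon receptor, was lower (-1.06, adjusted p 0.0178), as were the prostacyclin synthase Ptgis (-1.92, adjusted p 0.0432) and the carboxylesterase Ces3a (-3.49, adjusted p 0.0218). These were 1 of 6 redox partners, 1 of 8 regulators, 1 of 8 other P450 genes and 2 of 19 conjugating enzymes, all by edgeR, beside 5.77% of all genes called. The clusters that made up macrophages moved with the diet groups: cluster 53, led by H2-M2, Ccl12 and Mmp13, held 129 of 197 cells in D0 B and 69 of 575 in D0 A but 0 to 4 cells in each DDC library, and clusters 10 and 29 held 345 and 78 of the cells of D0 A. The part of this make-up in the 5 genes was not tested. Nor was the part of free RNA, and the low barcodes of D0 A held Alb at 1314 CPM. The 5 genes were not examined with single libraries left out. Whether any of them rests on D0 A alone, as Cyp2e1 did, was therefore not tested. None passed in progression against onset.

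**Figure D5:**
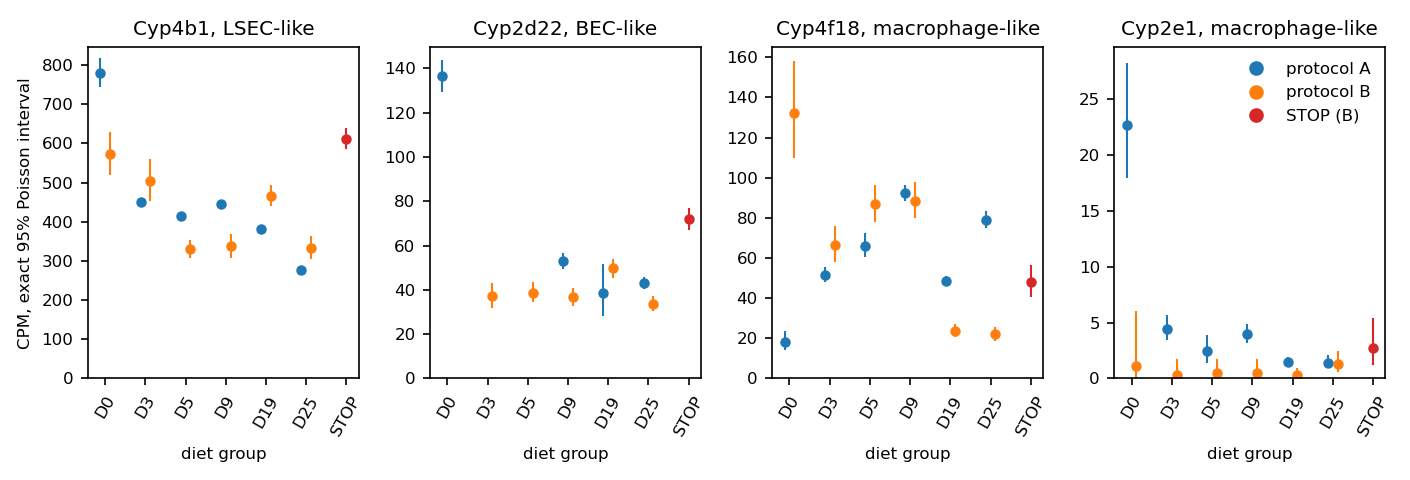
CPM by diet group with exact 95% Poisson intervals, 1 point per library coloured by protocol, for Cyp4b1 in LSEC-like cells, Cyp2d22 in BEC-like cells and Cyp4f18 and Cyp2e1 in macrophage-like cells. Both D0 points lie above the DDC points for Cyp4b1, the single D0 point does for Cyp2d22, the D0 points enclose the others for Cyp4f18, and D0 A stands alone for Cyp2e1.

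The mesenchymal cells were the last type with members well above the low barcodes. Cyp2e1 was at 77.9 CPM pooled in stellate cells and fibroblasts and above the low barcodes in 6 of 8 libraries. It ranged from 4.24 CPM in D5 A and 4.53 in D25 A to 127 in D0 A and 131.5 in D25 B. Clusters 41 and 30 did not separate it, with medians of 40.8 and 39.2 CPM. Cyp4f17 was above the low barcodes in 8 of 8 libraries at a median of 14.0 CPM, and Cyp2u1, a fatty acid hydroxylase, was highest in this type at 17.5 CPM. Cyp4f13 was found in every named type, from 8.82 CPM pooled in the named conventional dendritic cells to 22.7 CPM in BEC. That lay around the 16.8 CPM of the low barcodes. The named dendritic, T and NK cells had no member above 50 CPM pooled. Clusters 5 (4940 cells), 34 (956) and 40 (687), with Cd209a among their leading genes, stayed unnamed. These dendritic values therefore leave them out.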

How the data were processed

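The deposited matrices hold counts of UMIs, whole numbers that the authors made with kallisto (version not given in the sources used here) on GRCm38, per the labels, and that include barcodes of few UMIs. Barcodes with at least 1500 UMIs were taken as cells. Counts scaled to each cell and log-transformed, of 2000 variable genes without any Cyp gene, gave 40 principal components, 25 neighbours and 58 Leiden clusters (resolution 1.5, igraph 0.11.9). A cluster was named from at least 3 detected markers, and stayed unnamed if its median cell had over 30% mitochondrial UMIs. How markers become names was settled after clusters had been seen. The 41 named clusters held 74223 cells. Doublets were not removed by a caller, and an alternative leaves out cells with 0.2% or more of UMIs from markers of another type. Counts were not corrected for free RNA.

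Counts were summed per library and type with at least 20 cells. edgeR 4.0.16 (quasi-likelihood test, TMM, filterByExpr, Benjamini-Hochberg at 0.05 over all genes, R 4.3.3) compared DDC with D0 and progression with onset within a type. These fits had protocol as a term. It also compared each of 4 types with the mean of the other 3, blocking on library. A standard error is the log2 fold change divided by the root of its F statistic. The fits were tested on simulated data. Poisson intervals are exact at 95%. Alternatives were DESeq2 1.42.0, RLE size factors, no filter, 3000 UMIs per cell, no mixed cells, no protocol term, an Alb limit for hepatocytes, other ranges of low barcodes (one, above 100 and up to 500 UMIs, was added after seeing the data), and each library left out. Tests of diet and zone in hepatocyte-like cells could not be fitted.

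The members, lists and tests were chosen with earlier results of these data known. Always named were Cyp1a1, Cyp1a2, Cyp1b1, Cyp2b10, Cyp2e1, Cyp2f2, Cyp3a11, Cyp4a14 and Cyp4f18, with the 10 highest in hepatocyte-like cells, called members of at least 5 CPM, and up to 5 members per type whose ratio to Alb was over 5 times that of low barcodes. That last rule missed high members, so the 5 highest per type (10 in BEC) were added after values were seen, and members that it named at under 1 CPM in a type are not described there, apart from Cyp2t4 in LSEC. The contrasts of clusters within a type were also chosen after values were seen. Promoter windows (250 bases before to 50 after the start) are those of RefSeq.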

Additional observations from a re-analysis of the deposited data

Results flagged for a closer look

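Of 36 groups of 4 to 10 libraries checked for a library far from the others, 2 had one, where chance gives about 1 in 20. Cyp4b1 in BEC-like cells of progression was at 49.2 CPM in D9 A, above 15.1 to 26.3 CPM in the other 5 libraries. Cyp2e1 in macrophage-like cells of progression was at 3.94 CPM in D9 A, above 0.325 to 1.46 CPM in the other 5.

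Among cells that no type name covers, 5 members were at more than 1.5 times their highest level in a named type. Cluster 12, with markers of both LSEC and hepatocytes and 2294 of its 2404 cells from D0 A, had Cyp4a10 at 13.8 CPM, Cyp4a32 at 11.0 CPM and Cyp4a31 at 5.39 CPM, and their copies cannot be told apart by these counts. Cluster 43, led by the mesothelial genes Upk3b, Muc16 and Msln, had Cyp2s1 at 158 CPM. Cluster 55, a group of 150 cells led by the tuft cell genes Sh2d6, Trpm5 and Avil, had Cyp2j13 at 15.2 CPM.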

How the results depend on the processing

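The totals of members called between types stayed within 1.5 times under every alternative, but their splits did not. The number lower in hepatocytes was 5, but 1 by the Alb limit, 2 with 3000 UMIs per cell, 2 without D9 B and 3 without D25 B. The number lower in BEC was 22 but 13 by the Alb limit, and that higher in macrophages was 5 but 3 with RLE size factors, by the Alb limit or without D25 B. Counts called over diet were small and moved. With no filter on low counts they were 2 (DDC against D0) and 2 (progression against onset) of 63 members in LSEC. They were 9 and 3 of 62 in BEC, and 6 and 2 of 62 in macrophages. Of all genes, DDC against D0 then called 177 higher and 127 lower of 26132 in LSEC. In BEC it called 926 and 891 of 26850, and in macrophages 734 and 664 of 25952. Progression against onset called 260 and 87 in LSEC, 178 and 127 in BEC, and 406 and 316 in macrophages. With DESeq2 they were 2 and 1 in BEC and 2 and 1 in macrophages. DDC against D0 gave 0 in BEC and 0 in macrophages without mixed cells, and 2 and 0 without the protocol term. Without mixed cells, all genes split 48 to 39 of 14226 in BEC and 217 to 249 of 10967 in macrophages. Without the protocol term they split 191 to 626 of 15830 and 83 to 133 of 12565. With each library left out in turn, DDC against D0 gave 0 to 0 in BEC, where every DDC library ends the call, and 0 to 2 in macrophages, where it gave 0 without D0 A and 2 without D0 B, D3 B, D5 B, D9 B or D25 B. Progression against onset in macrophages gave 0 to 1, the 1 without D9 A, beside 94 genes higher and 139 lower of 12379. For DDC against D0 without D3 B, D5 B, D9 B or D25 B, 256 to 284 of all genes were higher and 318 to 372 lower.

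Single members turned direction in 5 cases: against the other types, Cyp2d22 and Cyp2j6 in hepatocytes by the Alb limit (0.93 and 1.99), Cyp2a5 in BEC without mixed cells (-0.43), and, without D25 B, Cyp2r1 in LSEC (-0.60 to 0.073 over all libraries left out) and Cyp2j6 in macrophages (-2.48 to 0.99). The causes were not tested. The level of members in low barcodes, 317 CPM at the median, was 351 with 10 to 50 UMIs and 272 with more than 100 and up to 500. Single libraries moved more than these medians. With 10 to 50 UMIs D25 B went from 218.9 to 77.24 CPM, D9 B from 221 to 421.9 and D19 B from 155.5 to 281.4. Others moved little, such as D5 B, from 155.4 to 154.8 CPM. The counts of libraries above the low barcodes are given for barcodes of at most 100 UMIs only. BEC without D0 A, and every fit over diet in hepatocyte-like cells, could not be fitted. No paired analysis was possible because the labels give no replicate numbers that pair libraries over diet, while comparisons between types were blocked on library.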
